A study of Mus musculus with 14 samples.

Results

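Potassium channel genes were examined in the hearts of mice with a cardiomyocyte deletion of Fam210a. Members were the symbols of the Kcn name pattern that had 10 or more counts in at least 3 libraries of each of the 2 count tables, without the antisense names ending in os. Of 53735 symbols, 98 had such a name, 4 antisense names were left out, 50 lay below the count threshold and 44 were members. By the current that they carry or modify, these were 6 genes of the transient outward current, 18 of the delayed rectifiers, 8 of the inward rectifiers, 4 two-pore channels, 7 calcium- or sodium-activated channel genes and 1 noncoding RNA, Kcnq1ot1. The threshold ignored genotype, but 6 members (Kcna1, Kcnv2, Kcnj14, Kcnk5, Kcnn3 and Kcnn4) had 10 counts in all 3 late controls and not in all 3 late cKO hearts, and thus reached it late through the controls. The count that decided membership was the one of rank 3 from the top among the early libraries. Just inside the threshold it was 10 for Kcnn4 and 11 for Kcnj14 and Kcnq5. Just outside it was 9, for Kcne1l and Kcnk13.

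The cKO mice were male C57BL/6 animals with the genotype Fam210afl/fl, alphaMHCMCM/+. The controls were male C57BL/6 animals with the genotype alphaMHCMCM/+, and thus carried the tamoxifen-activated Cre recombinase without the floxed alleles. The Cre is driven by the alpha-myosin heavy chain promoter, which is active in heart muscle cells, so the deletion targets those cells of the heart. Hearts were collected about 5 weeks (early; 4 cKO and 4 control) or about 10 weeks (late; 3 cKO and 3 control) after tamoxifen. RNA of the heart was sequenced after poly-A selection. Time and table are one factor here, since each table holds a single time point, and levels were set side by side only inside a table.

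Potassium channels carry the currents that end the cardiac action potential and hold the resting potential. In the mouse ventricle the fast transient outward current and the Kv1 and Kv2 delayed rectifiers do most of the repolarization, whereas the human ventricle relies more on KCNQ1 and KCNH2 channels. Inward rectifiers of the Kir2 family set the resting potential, Kir3 channels open with vagal input in atria and sinus node, and Kir6 channels couple the membrane to the ATP supply. Many pores work only with partner subunits that bring them to the surface or shape their gating.

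Sequencing was deeper late (29989076 to 35750964 counts per library) than early (15657298 to 19466469). The targeted gene Fam210a averaged 66.8 ± 3.41 CPM in late cKO hearts and 128 ± 7.27 CPM in late controls (SD, n = 3 each), with an edgeR adjusted p of 6.5e-05 (log2 fold change -0.94, SE 0.11). Early its log2 fold change was -0.22 (SE 0.06, edgeR adjusted p = 0.17, DESeq2 adjusted p = 0.0496), and every cKO heart lay below every control. Of its exon bases, 28.5% lie opposite Ldlrad4 exons, which unstranded libraries cannot separate. Ldlrad4 averaged 7.19 CPM in early cKO hearts and 7.18 CPM in early controls. CPM are counts scaled to the effective size of each library, per 1e6 reads. Early cKO replicate 4 is labelled a knockout by its title and a control by its genotype field, and was kept as a knockout. Late cKO replicate 3 stood apart from the other late cKO hearts, its counts differing from theirs by a chi-square of 107 and 101 per gene, while theirs differed by 21.5. Of 10 cardiomyocyte markers, 4 were lower and 1 higher in late cKO hearts, and they summed to 65712 to 76707 CPM in late cKO hearts and 74989 to 84677 CPM in controls, while 6 skeletal muscle markers together stayed at or under 0.660 CPM in all late hearts. In such bulk RNA, fewer cells of a type and less RNA per cell cannot be told apart.

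In late hearts, 26 of the 44 potassium channel genes were lower in cKO hearts than in controls, 2 were higher and 16 did not pass the test (edgeR quasi-likelihood test, Benjamini-Hochberg adjusted p under 0.05). Calls were common in this comparison, with 65% of all 14942 genes tested called, 33.2% lower and 31.8% higher. Among the members, 59.1% were lower and 4.55% higher. Their median log2 fold change was -0.86, beside -0.02 over all genes tested. In 26 members every late cKO heart lay below every control and in 4 every one lay above, against 35.9% and 34% of all genes. All reads of the members together made up 0.0735% to 0.0864% of the late cKO libraries and 0.132% to 0.139% of the control libraries. Of the 6 members that reached the threshold late through the controls, 5 were lower, a direction that the threshold favours. Of the other 38, which leave out members with few cKO counts, 21 were lower and 2 higher, with a median log2 fold change of -0.74. DESeq2 also called 28 members, with Kcnk3 in place of Kcnj14, and 52.9% of its genes. In early hearts none of the 43 members tested was called, with 0.613% of 13529 genes called (0.517% higher and 0.0961% lower), and Kcnq5 was too low to be tested.

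**Figure D1:**
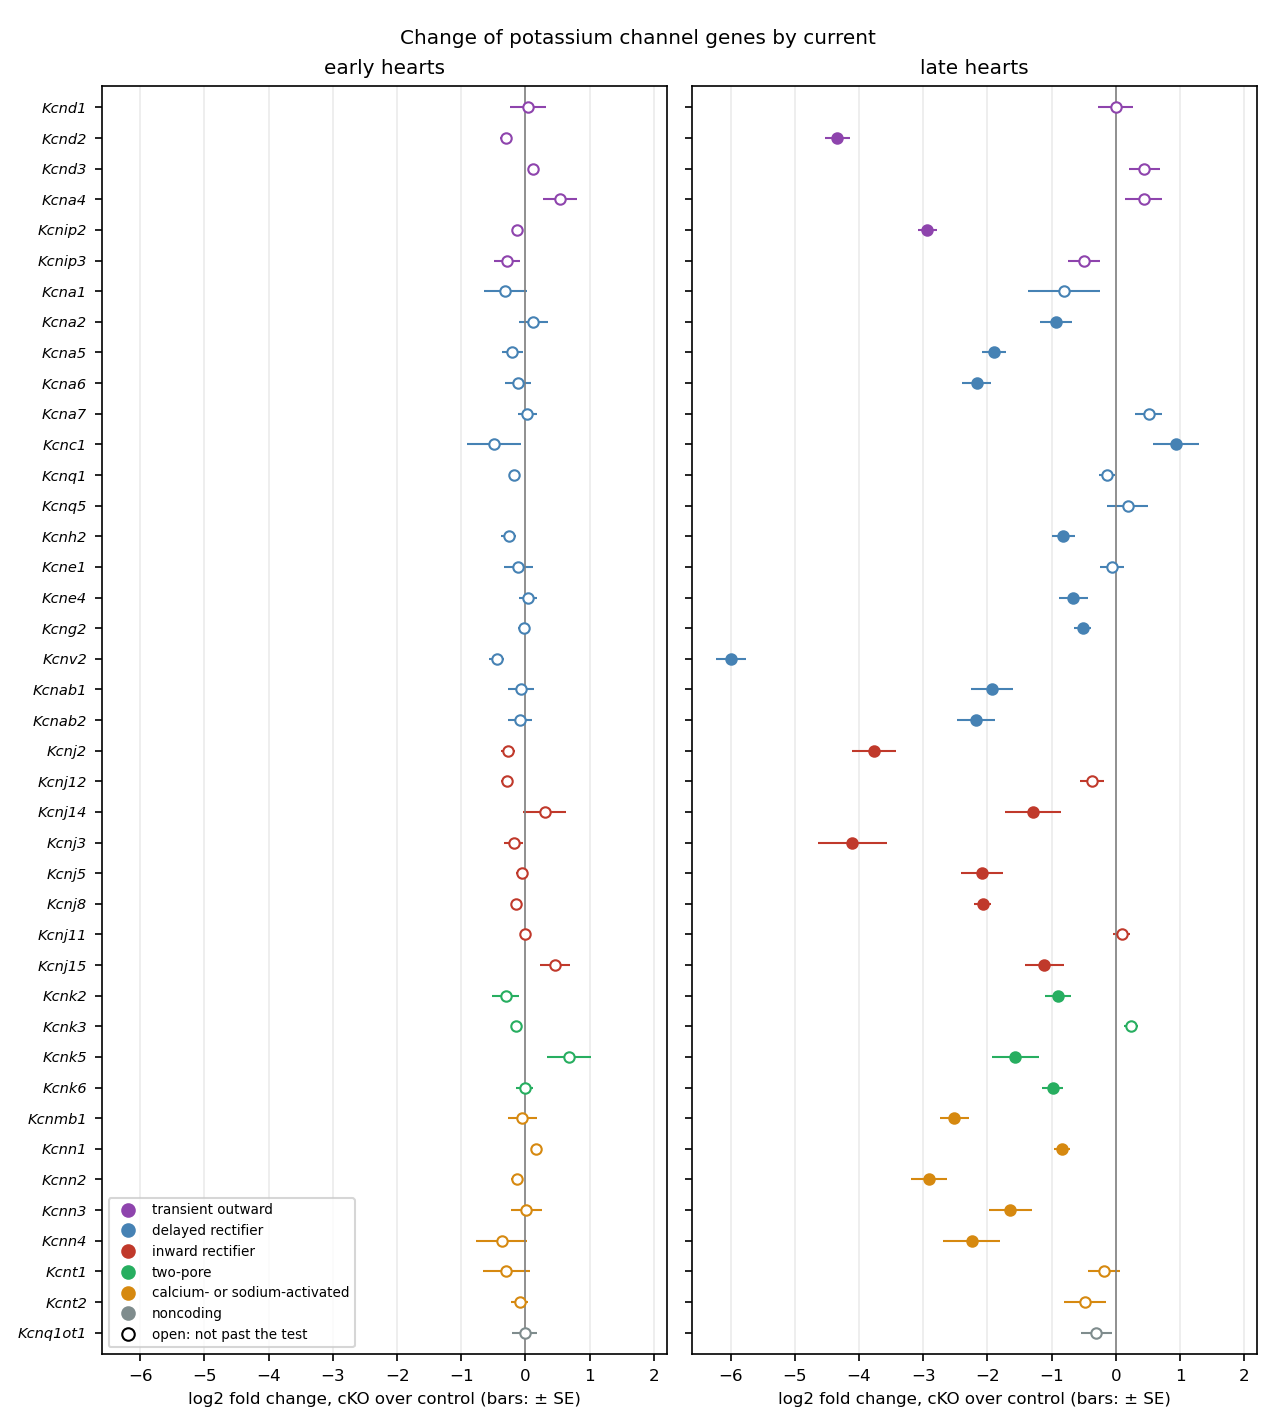
Log2 fold change of 41 of the 44 potassium channel genes, cKO over control, in early hearts (left) and late hearts (right), grouped by current; bars are ± SE and filled points passed the edgeR test. Early points lie near 0 and none is filled, while 26 late points are filled, 25 of them left of 0.

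Of the 6 genes of the transient outward current, 2 (33.3%) were lower, none higher and 4 not called in late cKO hearts. That lower share equals the one over all genes tested, 33.2%. The median log2 fold change of the 6 was -0.25. Kcnd2 encodes the Kv4 pore subunit that carries most of this current in mouse ventricle, Kcnd3 encodes its close relative, and Kcnip2 encodes KChIP2, the calcium-binding partner that Kv4 channels need to reach the membrane. Kcnd2 had 1.44, 1.31 and 1.10 CPM in the late cKO hearts, against 31.4, 21.7 and 25.2 CPM in the controls. Kcnip2 had 34.2, 24.7 and 31.6 CPM in late cKO hearts, against 244, 229 and 220 CPM in controls. For both genes the groups lay far apart and every cKO heart was below every control. Kcnd2 was 20.2-fold lower in cKO hearts (log2 fold change -4.34, SE 0.20, edgeR adjusted p = 5.26e-07). Kcnip2 was 7.65-fold lower (log2 fold change -2.94, SE 0.15, edgeR adjusted p = 7.79e-07).

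Kcnd3 was not called. It had 23.4, 20.8 and 11.8 CPM in late cKO hearts, against 13.4, 11.6 and 16.2 CPM in controls, so 2 cKO hearts lay above all controls and cKO replicate 3 lay among them. The log2 fold change was 0.45 (SE 0.24, edgeR adjusted p = 0.133), and without cKO replicate 3 it was 0.70 (edgeR adjusted p = 0.00101). Kcnd2 thus made up 10.3%, 10.5% and 14.7% of the summed Kcnd2 and Kcnd3 level per kilobase of exon in late cKO hearts, against 81.3%, 77.7% and 74.4% in controls. Early, the share was 72.3% to 78.0% in cKO hearts and 80.2% to 81.9% in controls. The remaining genes of the current were weakly transcribed. Kcna4, the Kv1 pore of the slow transient outward current, had 1.29, 1.93 and 1.34 CPM in late cKO hearts and 1.43, 0.849 and 1.11 CPM in controls (log2 fold change 0.43, SE 0.28, edgeR adjusted p = 0.206). Kcnd1, another Kv4 pore, had a log2 fold change of 0.00 (edgeR adjusted p = 0.998), and Kcnip3, another KChIP, one of -0.50 (SE 0.25, edgeR adjusted p = 0.106).

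The 250 bases before the RefSeq start (GRCm38.p6) are shown for these 3 genes because Kcnd2 and Kcnip2 were lower while Kcnd3, the other main Kv4 pore, was not called. Capitals mark the GC box GGGCGG or the E-box CACGTG, searched on both strands.
Kcnd2, chr6:21215096-21215345, plus strand: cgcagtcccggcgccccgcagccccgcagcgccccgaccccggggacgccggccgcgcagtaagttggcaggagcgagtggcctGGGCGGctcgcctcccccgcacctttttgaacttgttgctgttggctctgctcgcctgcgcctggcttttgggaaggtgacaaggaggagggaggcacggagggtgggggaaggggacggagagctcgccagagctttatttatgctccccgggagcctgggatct
Kcnd3, chr3:105451640-105451889, plus strand: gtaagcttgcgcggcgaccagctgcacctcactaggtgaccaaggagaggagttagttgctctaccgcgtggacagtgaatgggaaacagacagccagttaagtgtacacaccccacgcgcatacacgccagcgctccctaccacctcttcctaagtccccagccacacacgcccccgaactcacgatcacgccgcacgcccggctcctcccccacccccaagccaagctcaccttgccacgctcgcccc
Kcnip2, chr19:45816064-45816313, minus strand: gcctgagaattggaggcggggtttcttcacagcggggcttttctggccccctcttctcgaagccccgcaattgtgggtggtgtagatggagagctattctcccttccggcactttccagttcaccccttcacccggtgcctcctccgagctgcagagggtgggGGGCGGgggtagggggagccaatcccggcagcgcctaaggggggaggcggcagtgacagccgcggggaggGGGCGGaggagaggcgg
The Kcnd2 window held 1 GC box, that of Kcnip2 held 2 and that of Kcnd3 held none. GC content was 68.8% for Kcnd2, 62.8% for Kcnd3 and 66.8% for Kcnip2, with a median of 52.4% over 32851 windows of the same length. A window was found for 29 of the 44 members, with 40 windows in all, since some genes have several starts. The GC box occurred in 14 of the 40 (35.0%) and in 32.7% of all windows, and the E-box in 5 (12.5%) and in 6.02%. The other motifs searched were TGATGNAA, the core of the composite element bound by ATF4, AGATAA for GATA factors, TATAAA and TGACGTCA. They occurred in 1, 1, 0 and 0 of the member windows, and in 3.45%, 9.99%, 12.4% and 1.55% of all windows. The GC box did not split the members by call. The windows of the lower genes Kcna5, Kcnj3 and Kcnj8 held none, while those of the lower genes Kcnh2 and Kcnj5 held it. It also stood in the window of Kcna4 and in 1 window of Kcnip3, which were not called. These matches describe letters, not binding.

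**Figure D2:**
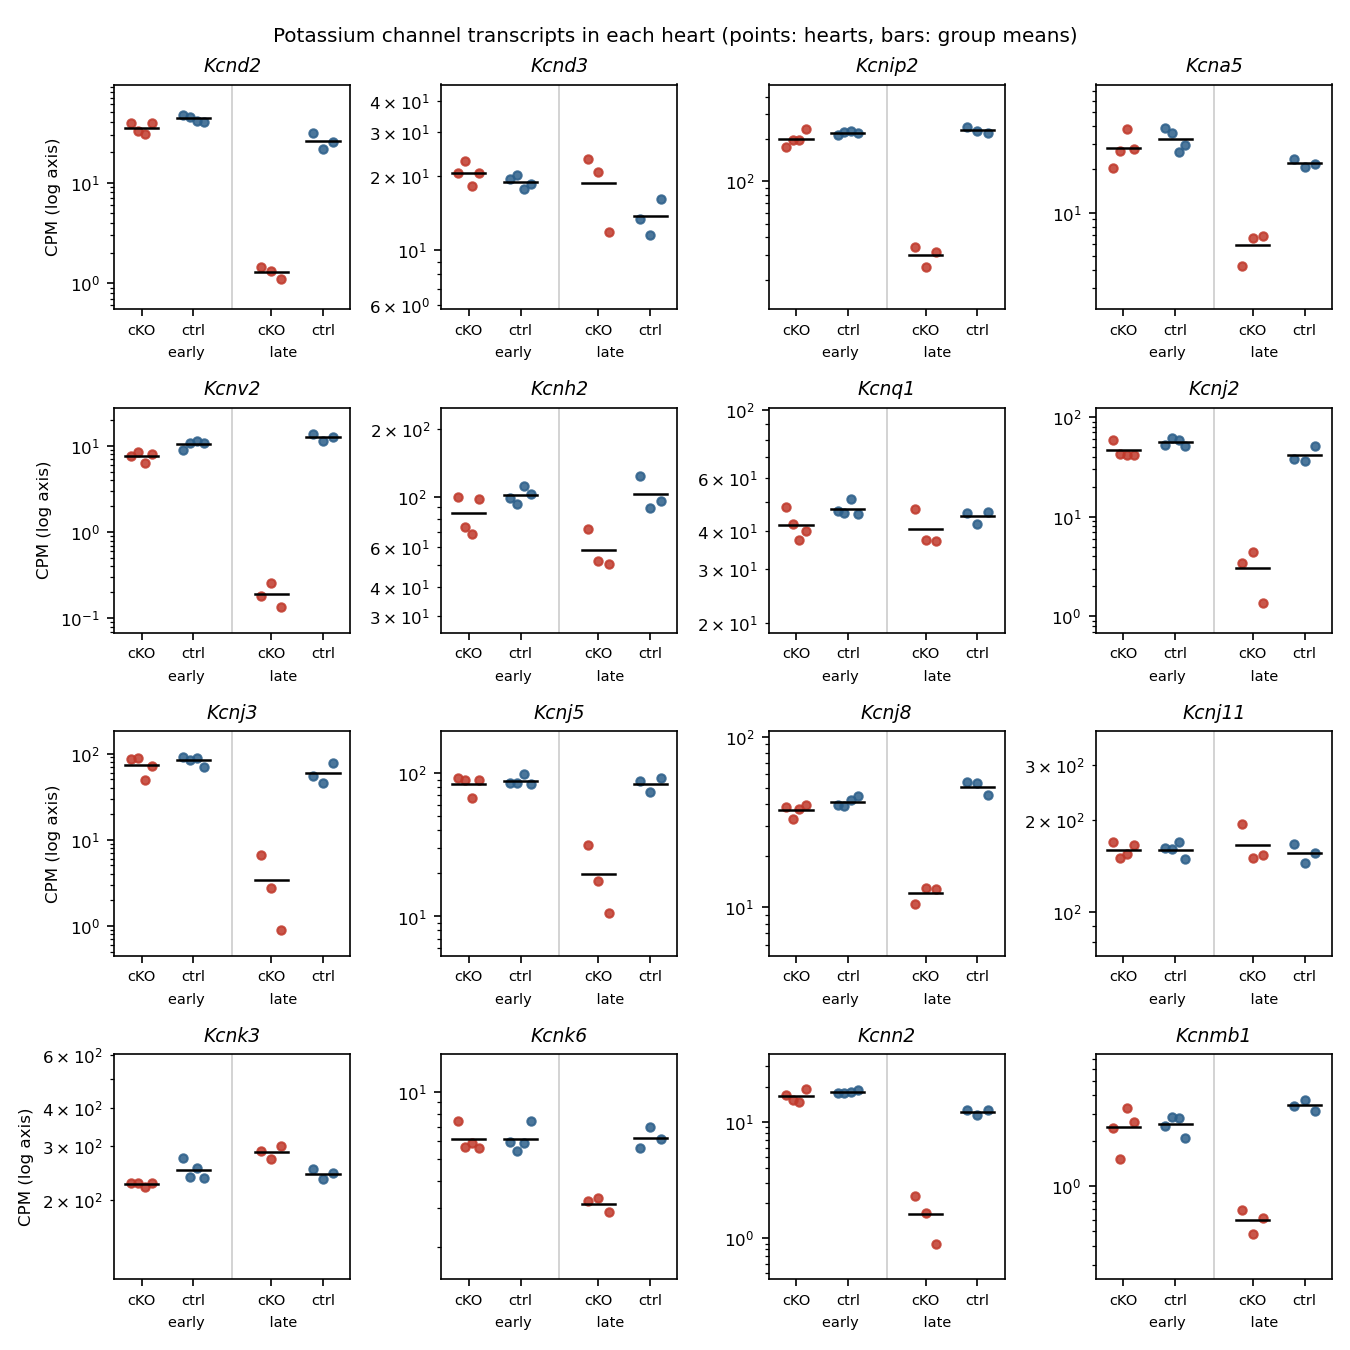
CPM of 16 potassium channel genes in every heart, on log axes, with early hearts left and late hearts right of the grey line in each panel; points are hearts (cKO red, control blue) and bars are group means. Late cKO hearts lie below late controls for Kcnd2, Kcnip2, Kcna5, Kcnv2, Kcnh2, Kcnj2, Kcnj3, Kcnj5, Kcnj8, Kcnk6, Kcnn2 and Kcnmb1, above them for Kcnk3, and neither all above nor all below them for Kcnd3, Kcnq1 and Kcnj11.

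The 18 delayed rectifier genes split in late cKO hearts, with 10 lower (55.6%), 2 higher (11.1%) and 6 not called. Over all genes tested, 33.2% were lower and 31.8% higher. The median log2 fold change of the 18 was -0.73. Kcna5, the Kv1 pore of the ultrarapid current, had 4.24, 6.68 and 6.82 CPM in late cKO hearts, against 23.6, 20.7 and 21.7 CPM in controls, and was 3.72-fold lower (log2 fold change -1.89, SE 0.19, edgeR adjusted p = 2.89e-05). The groups did not overlap. Kcna6, another Kv1 pore, was 4.50-fold lower (edgeR adjusted p = 3.93e-05), though 39.6% of its exon bases lie opposite another gene, and Kcna2 was 1.91-fold lower (edgeR adjusted p = 0.00919).

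Kcnv2 had the lowest log2 fold change among the members, which it joined late through its control counts alone. It encodes an electrically silent subunit that joins Kv2 pores and changes their gating. Late cKO hearts held 0.181, 0.256 and 0.137 CPM, together 19 counts, against 13.8, 11.4 and 12.7 CPM, together 1209 counts, in controls. It was 63.8-fold lower (log2 fold change -6.00, SE 0.24, edgeR adjusted p = 2.95e-07). Kcng2, another silent subunit of Kv2 channels and among the most abundant members, had 53.2, 43.5 and 50.6 CPM in late cKO hearts and 80.7, 64.6 and 65.2 CPM in controls (log2 fold change -0.51, SE 0.13, edgeR adjusted p = 0.008). The beta subunits Kcnab1 and Kcnab2, cytoplasmic partners of Kv1 pores, were 3.80-fold (edgeR adjusted p = 0.000671) and 4.52-fold (edgeR adjusted p = 0.00017) lower. Both of these partners stood under 3 CPM in every heart.

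Of the delayed rectifiers that dominate in large mammals, the pore of the rapid current was lower and that of the slow current did not pass the test. Kcnh2 encodes the pore of the rapid current, known as hERG in humans. It had 72.2, 52.3 and 50.6 CPM in late cKO hearts, against 124, 89.4 and 95.6 CPM in controls, and was 1.76-fold lower (log2 fold change -0.82, SE 0.18, edgeR adjusted p = 0.00292). Kcnq1, the pore of the slow current, had 47.5, 37.4 and 37.2 CPM in late cKO hearts and 45.9, 42.2 and 46.1 CPM in controls, so the groups overlapped (log2 fold change -0.14, SE 0.13, edgeR adjusted p = 0.373). Its partner Kcne1 had a log2 fold change of -0.06 (SE 0.19, edgeR adjusted p = 0.801). Kcne4, a partner that inhibits KCNQ1 channels, was 1.58-fold lower (edgeR adjusted p = 0.0281), but leaving out cKO replicate 2 or 3 or control replicate 2 or 3 ended that call, with adjusted p up to 0.0951. Kcnq1ot1, the noncoding RNA transcribed from the opposite strand within Kcnq1, had a log2 fold change of -0.30 (SE 0.24, edgeR adjusted p = 0.288), and 2.96% of Kcnq1 exon bases lie opposite it.

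Kcnc1 was called higher. It encodes a Kv3 pore best known from fast-spiking neurons and had 3.01, 1.71 and 1.71 CPM in late cKO hearts and 0.749, 1.70 and 0.900 CPM in controls (1.92-fold higher, edgeR adjusted p = 0.0449). That call ended without cKO replicate 1, control replicate 1 or control replicate 3, with adjusted p up to 0.162. Kcna1, Kcna7 and Kcnq5 did not pass the test, with log2 fold changes of -0.80, 0.51 and 0.19.

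Of the 8 inward rectifier genes, 6 (75%) were lower and none higher in late cKO hearts, where 33.2% of all genes tested were lower. The median log2 fold change of the 8 was -1.68. Kcnj2 encodes Kir2.1, the main pore of the current that holds the resting potential of ventricular muscle cells. It had 3.40, 4.38 and 1.37 CPM in late cKO hearts, against 37.9, 36.0 and 51.6 CPM in controls, and was 13.6-fold lower (log2 fold change -3.76, SE 0.34, edgeR adjusted p = 1.85e-05). Kcnj12, which encodes a second pore of the same current, had 15.3, 15.2 and 10.5 CPM in late cKO hearts and 18.7, 14.5 and 19.9 CPM in controls. The groups overlapped and the log2 fold change of -0.37 (SE 0.18) did not pass the test (edgeR adjusted p = 0.101). Per kilobase of exon, Kcnj2 made up 10.1%, 12.7% and 6.19% of the sum of the pair in late cKO hearts, against 50.6%, 55.7% and 56.7% in controls. Kcnj14, a Kir2 pore with under 1 CPM in every heart, was called 2.44-fold lower (edgeR adjusted p = 0.0259) although its groups overlapped. It lost the call without cKO replicate 1 or control replicate 1 or 2 (edgeR adjusted p up to 0.0926). It had reached the count threshold late through the controls.

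The windows before the starts of the paired genes Kcnj2 and Kcnj12 are shown because Kcnj2 was lower while Kcnj12 was not called.
Kcnj2, chr11:111065914-111066163, plus strand: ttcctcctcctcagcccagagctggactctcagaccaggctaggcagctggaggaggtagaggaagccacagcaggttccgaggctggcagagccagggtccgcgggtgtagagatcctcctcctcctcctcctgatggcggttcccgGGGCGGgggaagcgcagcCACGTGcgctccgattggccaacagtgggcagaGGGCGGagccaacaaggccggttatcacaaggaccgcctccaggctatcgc
Kcnj12, chr11:61065554-61065803, plus strand: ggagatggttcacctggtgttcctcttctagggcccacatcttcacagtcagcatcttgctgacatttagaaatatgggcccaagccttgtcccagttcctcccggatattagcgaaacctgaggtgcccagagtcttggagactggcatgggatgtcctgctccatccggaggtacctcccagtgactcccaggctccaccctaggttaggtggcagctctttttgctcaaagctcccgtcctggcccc
The Kcnj2 window held 1 E-box and 2 GC boxes and had a GC content of 65.6%. The Kcnj12 window held neither and had 56.0%, and its RefSeq start lies inside the GENCODE gene, which begins at 61022564 on chromosome 11.

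Kcnj4, which encodes another Kir2 pore known from brain and heart, was no member because its early libraries held at most 10 counts each. It was picked out after its values were seen. Late cKO hearts held 5.96, 8.22 and 11.6 CPM (198, 289 and 337 counts), against 0.586, 0.346 and 0.270 CPM (18, 11 and 9 counts) in controls. It was 21.3-fold higher (log2 fold change 4.41, SE 0.35, edgeR adjusted p = 8.98e-06). Of the 11 symbols that a threshold of 3 among all 14 libraries would add, 7 were called. Kcnj4 and Kcnma1 were higher. The other 5, Kcnu1 on the higher side and 4 on the lower, reached that threshold only with the late group in which they had more counts, so no direction is read from them. Kcnu1, a pore known from sperm, had 38, 30 and 17 counts in late cKO hearts, against 0, 0 and 2 in controls.

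The G protein-gated channels were lower as well. Kcnj3 and Kcnj5 encode the subunits of the acetylcholine-gated current, which is strongest in atria and sinus node. Kcnj3 had 6.62, 2.73 and 0.891 CPM in late cKO hearts, against 55.2, 45.5 and 76.9 CPM in controls (17.2-fold lower, log2 fold change -4.10, SE 0.54, edgeR adjusted p = 0.000161). Its exons share 31.1% of their bases with a gene on the other strand. Kcnj5 had 31.5, 17.5 and 10.6 CPM in late cKO hearts, against 87.5, 73.8 and 92.0 CPM in controls (4.24-fold lower, log2 fold change -2.08, SE 0.33, edgeR adjusted p = 0.000469). In both genes cKO replicate 1 was the highest of the cKO hearts and control replicate 3 the highest of the controls. Those hearts also held the most of the atrial light chain Myl7 in their groups. It had 78.8, 0.0853 and 0.240 CPM in late cKO hearts, against 15.9, 21.2 and 111 CPM in controls. Another atrial marker, Bmp10, had 0.421, 0.483 and 0.754 CPM in late cKO hearts, against 0, 0.0943 and 104 CPM in controls. The 7 atrial markers summed to 1764 to 2980 CPM in late cKO hearts and 145 to 1004 CPM in controls, most of it Nppa, which failing ventricles also make. Of the 7, Nppa was higher and Bmp10 and Nr2f1 were lower. Leaving out any late heart left Kcnj3 called, with log2 fold changes of -4.99 to -3.66, and Kcnj5 called, with -2.57 to -1.77. Early, cKO replicate 2 held 175 CPM of Myl7 and 165 CPM of Bmp10, and control replicate 1 held 22.0 CPM of Myl7, each the most of its group. Those 2 hearts had the highest early Kcnj3 of their groups, at 88.7 and 91.3 CPM, but not the highest Kcnj5. The part of atrial tissue in these early and late values was not tested.

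Among the ATP-sensitive channels, Kcnj11 encodes Kir6.2, the pore of the heart muscle cell, and Kcnj8 encodes Kir6.1, the pore best known from vascular smooth muscle, pericytes and endothelium. Kcnj11 had 194, 150 and 153 CPM in late cKO hearts and 167, 145 and 155 CPM in controls (log2 fold change 0.09, SE 0.13, edgeR adjusted p = 0.562). Kcnj8 had 10.4, 13.0 and 12.8 CPM in late cKO hearts, against 53.9, 53.3 and 45.4 CPM in controls. The groups of Kcnj11 overlapped, while Kcnj8 was 4.21-fold lower in cKO hearts (log2 fold change -2.08, SE 0.14, edgeR adjusted p = 3.5e-06). The genes of the sulfonylurea receptors that complete these channels were also lower, Abcc9 4.02-fold (edgeR adjusted p = 5.91e-05) and Abcc8 1.68-fold (edgeR adjusted p = 0.0093). Kcnj8 made up 7.16%, 11.1% and 10.8% of the sum with Kcnj11 per kilobase of exon in late cKO hearts, against 31.8%, 34.8% and 29.6% in controls.

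Most single markers of vessel cells were lower, as Kcnj8 was, but the smooth muscle and pericyte markers, Acta2 included, summed higher. Of 8 endothelial markers, 7 were lower in late cKO hearts and none higher, and their sum was 500 to 599 CPM in cKO hearts and 1034 to 1259 CPM in controls. Of 8 smooth muscle and pericyte markers, 6 were lower, among them Rgs5 by 2.05-fold (edgeR adjusted p = 0.000282). Acta2 and Cspg4 were higher, and the list summed to 1719 to 2428 CPM in cKO hearts and 1270 to 1387 CPM in controls. Acta2 alone held 993, 1360 and 1881 CPM of that sum in late cKO hearts, and 208, 227 and 173 CPM in controls. The part of these cells in the lower Kcnj8 level was not tested. Kcnj15, an inward rectifier outside these families, was 2.17-fold lower (edgeR adjusted p = 0.00978).

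**Figure D3:**
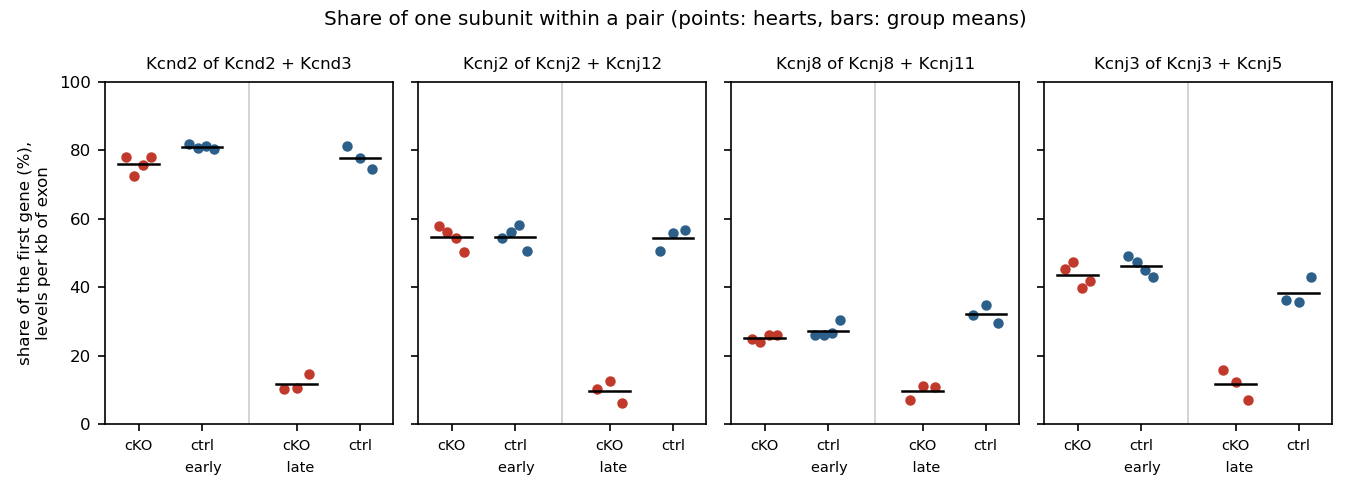
Share of the first gene in the summed level of a pair of related subunits, in percent of the CPM per kilobase of exon, for each heart; points are hearts (cKO red, control blue) and bars are group means. Late cKO hearts lie at 14.7% or less for Kcnd2, 12.7% or less for Kcnj2, 11.1% or less for Kcnj8 and 15.9% or less for Kcnj3, all below the late controls.

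Two-pore channels carry a background current that is open at rest. Kcnk3, which encodes TASK-1 and was the second most abundant member per kilobase in late controls, had 289, 273 and 301 CPM in late cKO hearts and 252, 235 and 245 CPM in controls. Every cKO heart lay above every control, but the log2 fold change of 0.24 (SE 0.11) did not pass the test (edgeR adjusted p = 0.0759, DESeq2 adjusted p = 0.0405). The other 3 two-pore members (75% of the 4) were lower, where 33.2% of all genes tested were lower. Kcnk6, which encodes TWIK-2, had 3.25, 3.33 and 2.88 CPM in late cKO hearts, against 5.60, 6.98 and 6.15 CPM in controls (1.98-fold lower, edgeR adjusted p = 0.000725). Kcnk2, the stretch-sensitive channel TREK-1, had 1.41, 1.51 and 1.61 CPM in late cKO hearts, against 2.41, 3.08 and 2.94 CPM in controls (1.86-fold lower, edgeR adjusted p = 0.00352). Kcnk5, which encodes TASK-2, was 2.96-fold lower (edgeR adjusted p = 0.00481) at 1.02 CPM or less in every late heart. It had reached the count threshold late through the controls. Kcnk1, which encodes TWIK-1, was no member, with at most 10 counts in any late heart.

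Of the 7 calcium- or sodium-activated channel genes, 5 (71.4%) were lower and none higher in late cKO hearts, where 33.2% of all genes tested were lower. The median log2 fold change of the 7 was -1.64, the value of Kcnn3. Kcnn3 and Kcnn4 reached the count threshold late through the controls, which favours a lower estimate and limits this count and median. The other lower members were Kcnn1, Kcnn2 and Kcnmb1. Kcnn2, the small-conductance calcium-activated pore SK2, which is known from atrial muscle cells, had 2.32, 1.65 and 0.891 CPM in late cKO hearts, against 12.7, 11.4 and 12.6 CPM in controls (7.48-fold lower, log2 fold change -2.90, SE 0.28, edgeR adjusted p = 2.5e-05). Its relatives Kcnn1, Kcnn3 and Kcnn4 were 1.78-fold, 3.13-fold and 4.74-fold lower (edgeR adjusted p = 0.000373, 0.0022 and 0.00178). Kcnn4 stood under 1 CPM and, among the late hearts, reached 10 counts in controls only. Kcnn3 reached 10 counts in 2 of the 3 late cKO hearts. Kcnmb1, the beta subunit of the large-conductance channel of vascular smooth muscle, had 0.692, 0.483 and 0.617 CPM in late cKO hearts, against 3.39, 3.74 and 3.15 CPM in controls (5.72-fold lower, edgeR adjusted p = 1.78e-05). The pore of that channel, Kcnma1, was below the count threshold, with 28, 23 and 15 counts in late cKO hearts and 6, 10 and 13 in controls (2.22-fold higher, edgeR adjusted p = 0.0205, DESeq2 adjusted p = 0.0536). The sodium-activated channels Kcnt1 and Kcnt2 did not pass the test, with log2 fold changes of -0.18 and -0.48.

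The levels per kilobase of exon showed which genes made up each current. Over the 43 coding members these levels summed to 220, 191 and 195 CPM per kilobase in late cKO hearts, against 349, 311 and 330 in controls. Kcnip2 ranked first in late controls at 66.4 ± 3.43 CPM per kilobase and sixth in late cKO hearts at 8.68 ± 1.41 (SD, n = 3 each). Kcnk3 led in late cKO hearts at 72.3 ± 3.59 CPM per kilobase, against 61.4 ± 2.16 in controls, and Kcnj11 followed at 45.1 ± 6.58 in cKO hearts and 42.3 ± 3.02 in controls. The transient outward genes made up 6.03% of the sum on average in late cKO hearts and 22.6% in controls, and the two-pore genes 36.5% in cKO hearts and 19.3% in controls. The transient outward level was mostly that of the partner Kcnip2, with 8.68 of 12.2 CPM per kilobase in late cKO hearts and 66.4 of 74.5 in controls. Among its pores, Kcnd2 averaged 0.249 CPM per kilobase in late cKO hearts and 5.06 in controls, and Kcnd3 1.95 in cKO hearts and 1.43 in controls. The delayed rectifiers held 26.3% in cKO hearts and 23.9% in controls, and the inward rectifiers 29.8% in cKO hearts and 32.2% in controls. As sums, the delayed rectifiers averaged 53.2 CPM per kilobase in late cKO hearts and 79.1 in controls, and the inward rectifiers 60.5 and 106. Both sums were thus lower although their shares stayed near those of controls. The two-pore sum averaged 73.45 in late cKO hearts and 63.68 in controls, so its larger share came with a smaller total over all currents. The Kcnk3 level did not itself pass the test. The currents held unequal shares of the late difference on this scale.

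**Figure D4:**
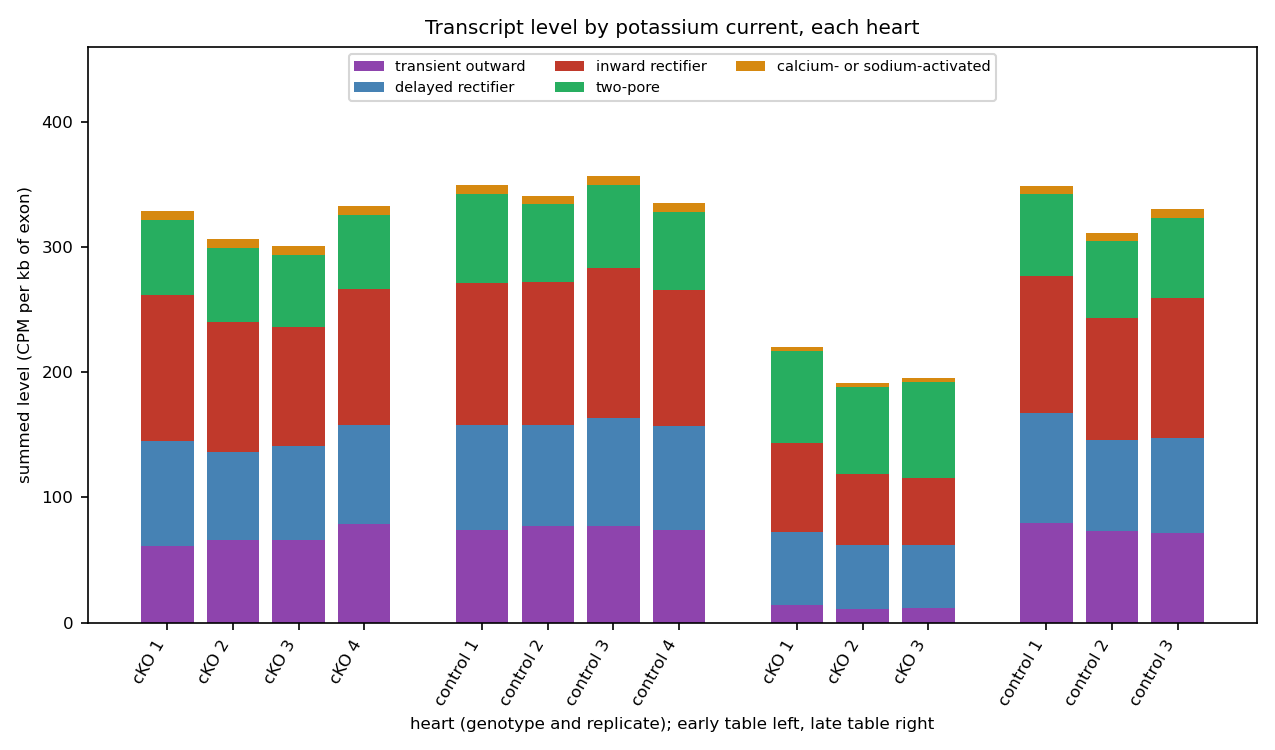
Summed transcript level of the coding potassium channel genes of each current, in CPM per kilobase of exon, stacked for each heart, with early hearts in the left 2 blocks and late hearts in the right 2. The late cKO hearts reach 191 to 220, against 311 to 349 in late controls, and their transient outward segment spans 10.7 to 14.1 against 71.4 to 79.3.

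Genes outside the Kcn names were counted from lists chosen with earlier results of these data known. For scale, 31.8% of all genes tested late were higher and 33.2% lower. Of 10 tested channel partners, 5 were higher in late cKO hearts and 2, the receptors Abcc8 and Abcc9, were lower, with a median log2 fold change of 0.22. The higher ones included Cav3, the muscle caveolin (1.75-fold, edgeR adjusted p = 0.00337). Of 12 transcription factors tied to channel expression, 5 were lower and 1, Gata4, was higher (1.55-fold, edgeR adjusted p = 0.00125), with a median log2 fold change of -0.16. Irx4, a ventricular homeobox factor, was 4.60-fold lower (edgeR adjusted p = 1.38e-05), and Etv1, a factor of fast conducting muscle, 4.45-fold lower (edgeR adjusted p = 0.000109). Irx3, Irx5, Klf15, Tbx5 and Nkx2-5 did not pass the test. Of 14 other genes of potassium transport, 5 were higher and 5 lower, near the shares over all genes, with a median log2 fold change of -0.22. Of the beta subunits of the sodium pump, Atp1b2 was 3.96-fold lower (edgeR adjusted p = 4.14e-06) and Atp1b1 was 1.79-fold higher (edgeR adjusted p = 0.000278). Tmem38b, a potassium channel of the sarcoplasmic reticulum, was 2.24-fold higher (edgeR adjusted p = 3.71e-05). No gene of these 3 lists was called early.

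Some markers of other cells were lower as well, where 33.2% of all genes tested were lower. Lower in late cKO hearts were 4 of 6 fibroblast markers (451 to 590 CPM in cKO hearts, 919 to 1163 CPM in controls), 4 of 6 macrophage markers (112 to 134 CPM in cKO hearts, 182 to 192 CPM in controls) and 3 of 3 tested neuron and glia markers (4.04 to 5.42 CPM in cKO hearts, 13.1 to 14.4 CPM in controls). The single lymphocyte marker tested, Lck, was lower, and that list summed to 0.301 to 0.480 CPM in cKO hearts and 1.82 to 2.04 CPM in controls. Of 3 tested adipocyte markers 1, Adipoq, was lower. The part of these cells in the values of weakly transcribed members such as Kcnn4, Kcnab1 or Kcna6 was not tested.

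Early hearts showed no called member, but most estimates lay below 0. Of the 43 members tested, 30 had a negative and 13 a positive log2 fold change, with a median of -0.09 beside 0.00033 over all genes. At an unadjusted p under 0.05 there were 7 members, namely Kcnd2, Kcnq1, Kcnh2, Kcnv2, Kcnj2, Kcnj12 and Kcnk3, each with a negative estimate, with 10.3% of all genes at that p. DESeq2 called no member either, with 1.08% of its genes called. In 3 of the 43 members tested (6.98%), Kcnv2, Kcnd2 and Kcnk3, every cKO heart lay below every control, against 2.68% of all genes, and no member had every cKO heart above, against 2.98% of all genes. Kcnv2 had 7.67, 8.45, 6.33 and 8.15 CPM in early cKO hearts and 8.86, 10.8, 11.4 and 10.7 CPM in controls (log2 fold change -0.45, SE 0.11, edgeR adjusted p = 0.149). Kcnd2 had 39.0, 32.3, 30.3 and 39.3 CPM in early cKO hearts and 47.2, 44.8, 41.0 and 40.3 CPM in controls (log2 fold change -0.30, SE 0.09, edgeR adjusted p = 0.257). Kcnk3 had 227, 228, 220 and 227 CPM in early cKO hearts and 275, 239, 255 and 237 CPM in controls (log2 fold change -0.16, SE 0.06, edgeR adjusted p = 0.387). For Kcnv2 and Kcnd2 these estimates were small beside the late ones, and none of the 3 passed the test over all genes.

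For Kcnip2 the early values were 176, 196, 198 and 235 CPM in cKO hearts and 214, 225, 229 and 219 CPM in controls, with the groups overlapping (log2 fold change -0.14, SE 0.08, edgeR adjusted p = 0.58). The highest heart of all was cKO replicate 4, the library with the conflicting genotype field, and without it the log2 fold change was -0.22 (edgeR adjusted p = 0.125). Kcnj2 had 58.9, 42.9, 41.6 and 41.5 CPM in early cKO hearts and 52.0, 62.0, 58.6 and 51.7 CPM in controls (log2 fold change -0.28, SE 0.11, edgeR adjusted p = 0.405). Only its cKO replicate 1 lay among the controls, and without that heart the gene was called (log2 fold change -0.42, edgeR adjusted p = 0.0363).

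The change within the late table was then compared with that within the early table, as the genotype-by-time contrast of a fit to all 14 libraries. It differed for 28 of 44 members, 25 with a lower and 3 with a higher late estimate. Of 14555 genes, 61.2% were called, 31.3% lower and 29.8% higher. Of the lower members, Kcnv2, Kcnj14, Kcnk5, Kcnn3 and Kcnn4 reached the count threshold late through the controls, which favours that direction. The difference was -5.52 on the log2 scale for Kcnv2 (edgeR adjusted p = 1.61e-10), -4.02 for Kcnd2 (edgeR adjusted p = 6.42e-10), -3.90 for Kcnj3 (edgeR adjusted p = 8.34e-06), -3.46 for Kcnj2 (edgeR adjusted p = 3.19e-07) and -2.78 for Kcnip2 (edgeR adjusted p = 1.16e-09). For Kcnk3, which was lower in every early and higher in every late cKO heart than in the controls of its table, it was 0.41 (edgeR adjusted p = 0.00273). Of the members called late, 27 were also called in this contrast, Kcnk2 was called late only, and Kcnk3 was called only in the contrast.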

How the data were processed

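The authors deposited raw read counts by gene symbol, in 1 table for each time point. Per the labels' protocols, poly-A RNA was made into unstranded TruSeq RNA V2 libraries and sequenced as single-end reads of 100 nt. Trimmomatic 0.36, STAR 2.6.0c and the build GRCm38 are named in the submitters' processing notes. How reads were counted, and with which strand setting, is not given in the sources used here. Without strand, reads from genes that overlap on opposite strands cannot be told apart. Nothing states that libraries of a group came from different mice, and p-values then measure only the spread between samples, which may be technical.

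Each table was tested alone in R 4.3.3 with edgeR 4.0.16 (TMM scaling, filterByExpr with a minimum count of 10 and a minimum total of 15, quasi-likelihood F test). The Benjamini-Hochberg adjustment ran over all genes tested, and an adjusted p under 0.05 was a call. For the difference between times, the interaction of genotype and time was tested across all 14 libraries. DESeq2 1.42.0 was an alternative. Further edgeR fits used RLE size factors, no count filter, a single fit of all libraries or a replicate block. Others counted early cKO replicate 4 as a control or left out each heart in turn. The scripts were tested on simulated counts with known changes. CPM used TMM-scaled library sizes, and each standard error was computed as the size of the log2 fold change over the root of its F value. Levels per kilobase used GENCODE M21 exon lengths, found for 44 of 44 members, and depend on the annotated exons. Promoter windows are from RefSeq tables of GRCm38.p6.

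The members, the gene lists, the motifs and the naming rule were chosen with earlier results of these data known. The rule named the main cardiac subunits of each current, every member called early or in the difference between times, the 10 members with the smallest late p, and up to 4 called genes of each other list. Members outside it are named to complete their family. Some genes that the rule or a list holds enter the counts and sums but are not reported here. All columns of both tables were used. With 3 against 3 hearts no exact permutation p under 0.1 is possible, so no such test is given for single genes.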

Additional observations from a re-analysis of the deposited data

Results flagged for a closer look

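Of 14555 genes tested, 61.2% were called by the edgeR genotype-by-time contrast (adjusted p under 0.05), 31.3% lower and 29.8% higher. In 28 of the 44 members the change within the late table differed from that within the early table by this contrast. Among them, Kcnv2, Kcnj14, Kcnk5, Kcnn3 and Kcnn4 reached the count threshold late through the controls, which favours a lower late estimate. The late minus early differences of the log2 fold change were, for the transient outward genes, -4.02 (Kcnd2) and -2.78 (Kcnip2). For delayed rectifier genes they included -5.52 (Kcnv2), -2.07 (Kcnab2), -2.02 (Kcna6), -1.83 (Kcnab1), -1.67 (Kcna5), -1.03 (Kcna2), -0.68 (Kcne4), -0.54 (Kcnh2), -0.47 (Kcng2) and 1.46 (Kcnc1). For the inward rectifier genes they were -3.90 (Kcnj3), -3.46 (Kcnj2), -2.01 (Kcnj5), -1.90 (Kcnj8), -1.57 (Kcnj14) and -1.56 (Kcnj15). For the two-pore genes they were -2.22 (Kcnk5), -0.96 (Kcnk6) and 0.41 (Kcnk3), and for the calcium-activated genes -2.75 (Kcnn2), -2.45 (Kcnmb1), -1.85 (Kcnn4), -1.64 (Kcnn3) and -0.99 (Kcnn1). Each table holds its own time point, so a difference between times and one between tables cannot be told apart.

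In 5 of 70 early groups of 4 hearts of the named members, 1 heart lay farther from the others than Dixon's 95% limit allows, and chance flags about 1 in 20 groups. Among early cKO hearts these were Kcnj2 in replicate 1, at 58.9 CPM the highest, Kcnab2 in replicate 1, at 1.46 CPM the lowest, Kcnj5 in replicate 3, at 67.1 CPM the lowest, and Kcnk3 in replicate 3, at 220 CPM the lowest. Among early controls it was Kcnj5 in replicate 3, at 98.3 CPM the highest.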

How the results depend on the processing

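The early count of 0 called members became 2 without the low-count filter, both lower, namely Kcnd2 (adjusted p = 0.0366) and Kcnv2 (adjusted p = 0.0199). It ranged from 0 to 1 when single hearts were left out, the 1 being Kcnj2 without cKO replicate 1. The late count of 28 was 28 with DESeq2, which dropped Kcnj14 (adjusted p = 0.0518) and added Kcnk3, 32 in the fit of all 14 libraries, 26 with the replicate block and 26 to 29 when single hearts were left out, 24 to 26 of them lower. The 2 higher late members became 5 in the fit of all 14 libraries, which added Kcnd3, Kcna7 and Kcnk3 (and Kcnj12 as lower), 1 with the replicate block, which dropped Kcnc1, and 1 to 4 when single hearts were left out. The difference between times held 28 members, 26 with the replicate block (2 higher and 24 lower) and 23 to 29 when single hearts were left out (2 to 4 higher and 20 to 26 lower). Same-numbered deviations gave no sign of a pairing by replicate number, with correlations of -0.0905 to -0.0403 early and -0.553 to -0.0648 late. Deviations centred within groups of 3 or 4 hearts cannot exclude one. The values with the replicate block show only what a shared number would change. The cause of these moves was not tested.

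No call reversed, but some estimates of members that were not called turned sign when a heart was left out, such as late Kcnq5 (-0.11 to 0.35), Kcnj11 (-0.03 to 0.17) and Kcne1 (-0.24 to 0.06). Of the 28 late calls, 25 were kept in every leave-one-out fit, all but Kcnc1, Kcne4 and Kcnj14, and of the 28 differences 21 were kept, all but Kcna2, Kcnc1, Kcnh2, Kcne4, Kcng2, Kcnj14 and Kcnn4. Kcnip3 gained a late call without cKO replicate 1 (adjusted p = 0.0468), and Kcna7 without cKO replicate 3 or control replicate 1 (adjusted p from 0.02). Kcnh2 lost its difference with DESeq2, RLE factors and cKO early replicate 4 as a control, and Kcne4 with DESeq2, no count filter and the replicate block, so DESeq2 kept 23 lower and 3 higher differences. Other scalings moved the median of all genes by under 0.1 on the log2 scale. With 14 libraries as the base of the count threshold, late calls among 55 symbols were 30 lower and 5 higher. Those counts include 4 lower and 1 higher symbols that reached that threshold only with the late group in which they had more counts. No direction is read from these 5. With 10 counts required in every late heart, a choice made after seeing the data, 21 of 38 were lower and 2 higher. Over all genes tested late, 33.2% were lower and 31.8% higher. Members under 1 CPM rest on few reads.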
